A study of Mus musculus with 4 samples.

Results

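The mitochondrial ribosome is described here through its protein genes in primary cultures of mouse cortex, 2 arrays of neurons and 2 arrays of astrocytes. Members were all probe sets whose platform annotation holds a single gene symbol made of Mrpl or Mrps, a number and at most 1 letter. That rule used no measured value. It found 156 probe sets for 76 genes, among 45037 probe sets and 18194 genes with a single symbol on the array. A probe set is a group of short oligonucleotides that together read a transcript of a gene, and 23 of the 156 are annotated as matching several transcripts. The neuron cultures came from C57BL6 fetuses at embryonic day 16 and were kept, after their first hours, at 1% fetal calf serum and 19.4 mM glucose. The astrocyte cultures came from newborn C57BL6 animals and were kept with 10% serum and 33 mM glucose. By the series description, neurons were studied after 7 days in vitro and astrocytes after 20 days, whereas the protocol text gives a single shorter period for all assays. The labels name no genetic change and no treatment in either group. Cell type, donor age, medium and time in culture therefore changed together and cannot be told apart. The titles call the arrays biological replicates, and the sources used here do not give how many animals a culture pooled.

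Mitochondria keep their own ribosome, which makes the few respiratory chain and ATP synthase proteins that mitochondrial DNA encodes. Its ribosomal RNA comes from mitochondrial DNA, but all of its proteins are encoded in the nucleus, made in the cytosol and imported. The large subunit forms peptide bonds and the small subunit reads the messenger RNA. Some of the proteins have counterparts in bacterial ribosomes and others are found only in mitochondria. Its protein genes are used in every cell with mitochondria, neurons and astrocytes included.

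Of the 76 genes, 75 code for ribosomal proteins, 49 of the large and 26 of the small subunit. The remaining symbol, Mrps36, belongs to a protein now placed in the alpha-ketoglutarate dehydrogenase complex. Symbols do not always name the subunit: Mrps18a and Mrps30 sit in the large subunit. Mrpl30 and Mrpl53 are read on this array by probe sets with several symbols and were left out by the rule. All 76 genes were read by a probe set at or above the array median on all 4 arrays, so no gene entered through a single group. Of the 156 probe sets, 131 passed the filter on low values and 25 did not, with signals from 2 to 42. There were 9 probe sets at or under the background of the bacterial control probe sets on all 4 arrays.

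The cultures matched their labels in most markers. All 10 neuron markers tested higher in neurons, with summed signals of 33637 to 33756 on the neuron arrays and 2956 to 3154 on the astrocyte arrays. Of the astrocyte markers, 8 of 9 tested higher in astrocytes, and their summed signal was 4704 to 5014 in neurons and 17969 to 18277 in astrocytes. Several markers passed the filter on low values only through the group in which they were high, so calls among them support no direction. Through the neuron arrays these were Snap25, Dcx, Rbfox3, Nefl, Pdgfra, Mbp, Sox10, Mki67, Birc5 and Lum. Through the astrocyte arrays these were Islr, Foxc1, Col1a1, C1qa, C1qb, Ctss, Cx3cr1 and Tyrobp. Markers of other cells moved with the groups too. Summed signals were 125 to 174 in neurons and 815 to 844 in astrocytes for 8 microglia and macrophage markers, and 526 to 538 against 4010 to 4228 for 7 markers of fibroblasts and meninges. Of those 7, 5 were higher in astrocytes, and Islr alone read 29 and 32 against 2465 and 2689. Lum was called higher in neurons (40 and 45 against 23 and 17), and it passed the filter only through the neuron arrays. In neurons, Aif1, C1qa, C1qb and Itgam among the microglia markers lay at or under the background. Cell cycle genes ran the other way, with 7 of 9 higher in neurons and summed signals of 4144 to 5347 against 1977 to 2287. Of 6 tested markers of the oligodendrocyte lineage, 4 were higher in neurons, led by Pdgfra, a receptor of its progenitors (1177 and 1302 against 19 and 21), and Olig1 was higher in astrocytes. Their summed signals overlapped, at 4413 to 5322 in neurons and 4200 to 4597 in astrocytes. The part of these other cells in the differences below was not tested. In bulk RNA, fewer cells of a type and less RNA per cell cannot be told apart.

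The mitochondrial ribosomal protein genes had similar signals in neurons and astrocytes, with a minority higher in each. By limma with Benjamini-Hochberg adjustment at 0.05, 13 genes were higher in neurons (17.1%), 14 were higher in astrocytes (18.4%) and 49 did not pass. Over all 12040 genes tested, 62.2% were called in either direction, 31.0% higher in neurons and 31.1% higher in astrocytes, so the share called among the members, 35.5%, lay under that background. The median log2 difference, neurons minus astrocytes, was 0.03 over the members and 0.02 over all genes. The median log2 signal of the 76 genes was 8.89 on each neuron array, and 8.77 and 8.92 in astrocytes, so the groups overlapped. Their summed signal did not overlap, at 39524 and 38401 in neurons and 41562 and 44738 in astrocytes. Without Mrps6 these sums were 38401 and 37224 against 37890 and 40606, which did overlap. With 1 array left out, fewer genes passed among the members and among all genes, of which 45.2% to 46.8% were then called. The members higher in neurons and in astrocytes numbered 4 and 6 without neurons replicate 1, 6 and 9 without neurons replicate 2, 3 and 8 without astrocytes replicate 1, and 6 and 7 without astrocytes replicate 2. Called in all 4 of these fits were 7 of the 27: Mrps6, Mrpl13, Mrpl24 and Mrps14 in astrocytes and Mrps26, Mrpl12 and Mrpl20 in neurons.

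The differences were small in both directions. The median size of the log2 difference was 0.27 among the members and 0.69 among all genes, and the standard deviation was 0.46 and 1.51. A difference under 1.5-fold was seen in 64 of the 76 genes (84.2%), against 44.6% of all genes. Called and at least 2-fold were 4 members (5.26%), against 36.8% of all genes: Mrps6, Mrpl13 and Mrpl24 in astrocytes and Mrps26 in neurons. The arrays of one group did not overlap those of the other in 51 members (67.1%), where 81.9% of all genes had groups that did not overlap. The balance between calls depended on the scaling and on the filter. Astrocyte calls were the more numerous under each of the 3 scalings, narrowly so with the deposited one. They were the fewer without the filter on low values. Genes higher in neurons were 48.1% of the member calls with the deposited scaling and with quantile normalization, and 36.0% with median centring. With each array centred on its median, which shifted the median of all genes by -0.11, 9 members were higher in neurons and 16 in astrocytes, the member median was -0.08, and none of the 27 calls turned round.

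**Figure D1:**
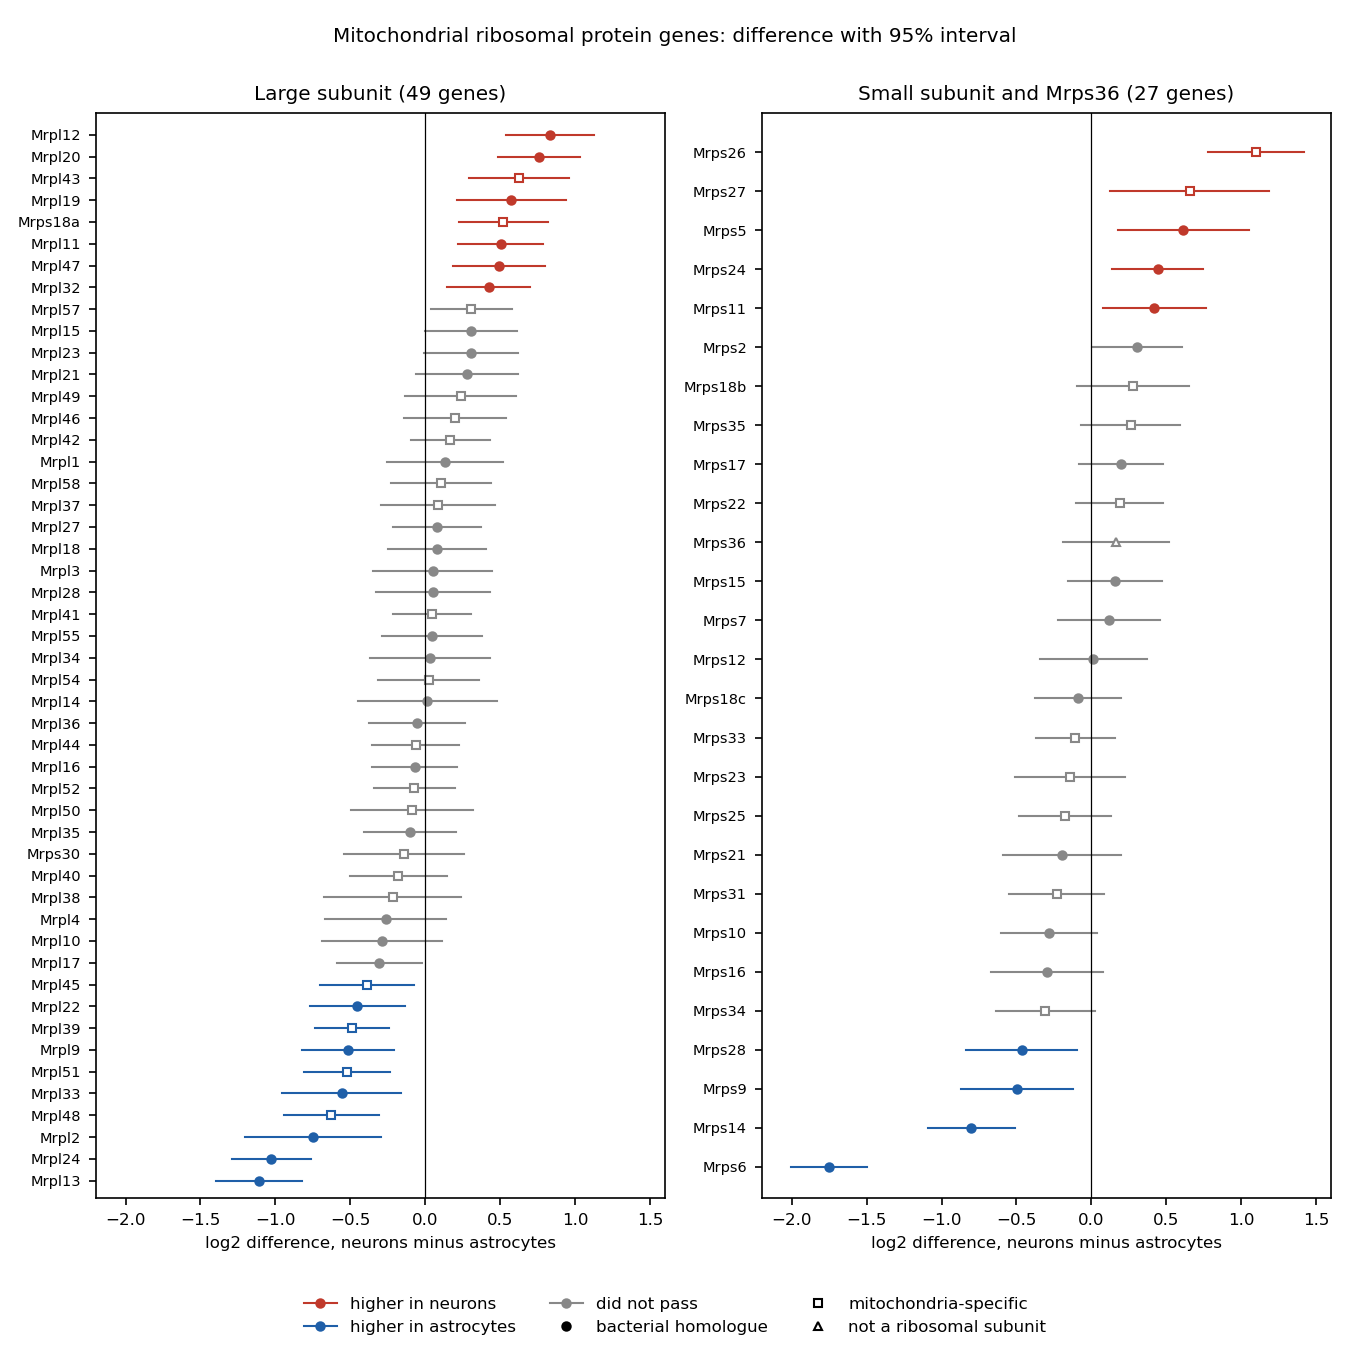
Log2 difference of each member gene, neurons minus astrocytes on the x axis, with its 95% interval from limma, for 49 genes of the large subunit (left) and 26 of the small subunit with Mrps36 (right), ordered by difference. Red genes are higher in neurons, blue genes higher in astrocytes and grey genes did not pass; 49 intervals of grey genes lie within 1 log2 unit of 0, and Mrps6 stands apart at -1.75.

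Both neighbouring gene groups, the cytosolic ribosomal proteins and the subunits of the respiratory chain and ATP synthase, had differences of like size but a different balance. Both groups were chosen by symbol and leave out probe sets with several symbols, so they may be incomplete. Cytosolic ribosomal proteins make the particle that translates messenger RNA outside mitochondria. Of their 43 tested genes, 15 were higher in neurons (34.9%), 2 were higher in astrocytes (4.65%) and 26 did not pass, with a median difference of 0.23. Over all genes these shares were 31.0% and 31.1%. Respiratory chain and ATP synthase subunits include the partners of the products of the mitochondrial ribosome. Of 76 tested, 35 were higher in neurons (46.1%), 6 were higher in astrocytes (7.89%) and 35 did not pass, with a median of 0.24. A difference under 1.5-fold was seen in 81.4% and 82.9% of them. These counts are given for the deposited scaling only, and no test was made between the groups of genes.

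**Figure D2:**
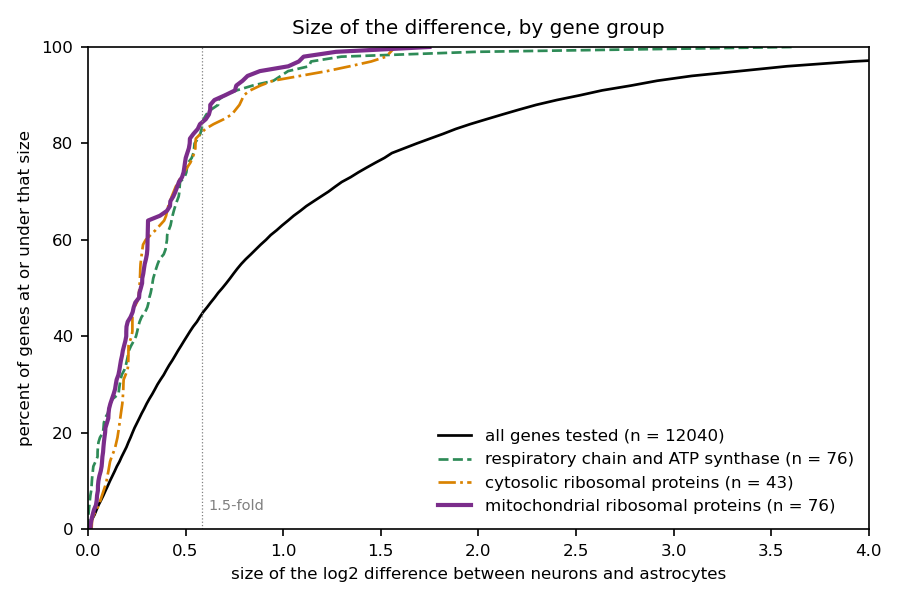
Percent of genes (y axis) whose log2 difference between neurons and astrocytes is at or under a given size (x axis, sign removed), for all 12040 genes tested and for 3 gene groups. At 1.5-fold, marked by the dotted line, the curves stand at 84.2% for mitochondrial ribosomal proteins, 82.9% for the respiratory chain and ATP synthase, 81.4% for cytosolic ribosomal proteins and 44.6% for all genes.

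Both subunits of the mitochondrial ribosome held genes of both directions. In the large subunit, 8 of 49 genes were higher in neurons and 10 were higher in astrocytes, with a median difference of 0.03. In the small subunit these were 5 and 4 of 26, with a median of -0.04. Among the 45 proteins grouped here as having a bacterial counterpart, 9 were higher in neurons and 10 in astrocytes (42.2% called). Among the 30 grouped as mitochondria-specific, 4 were higher in each (26.7% called). The first group counts Mrpl55, which did not pass and whose place there was not checked. The second counts Mrps18a and Mrps18b, which are related to a bacterial protein but do not take its place. All of these shares lay under the 62.2% of all genes.

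In the small subunit, Mrps6 had the largest difference of any member. Mrps6 is the counterpart of a bacterial protein of the platform, where it pairs with the counterpart of bacterial protein S18, encoded by Mrps18c. Neuron arrays read 1123 and 1177, and astrocyte arrays read 3672 and 4132. Both astrocyte arrays lay more than 3-fold above both neuron arrays. The difference was 3.36-fold, log2 difference -1.75 ± 0.11 (SE, n = 2 per group), adjusted p = 3.41e-06. A second probe set gave 640 and 629 in neurons and 2214 and 2583 in astrocytes, a 3.72-fold difference (log2 difference -1.89 ± 0.12, adjusted p = 3.58e-06). Both probe sets therefore placed Mrps6 higher in astrocytes. The call held when any of the 4 arrays was left out, with log2 differences from -1.83 to -1.66. Its partner Mrps18c read 574 and 637 in neurons and 634 and 655 in astrocytes, and did not pass (log2 difference -0.09, 95% interval -0.38 to 0.20, adjusted p = 0.569).

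Mrps6 starts beside another gene. In RefSeq's table for GRCm38.p6, Slc5a3, which encodes a sodium-coupled myo-inositol transporter, starts 14 bases upstream of Mrps6 on the same strand. The sequence around both starts is shown because Mrps6 has the largest difference of the members. It runs from 250 bases before to 50 bases after the Mrps6 start, and capitals mark the bases from the Slc5a3 start to the Mrps6 start.
Mrps6, chr16:92058086-92058385, + strand: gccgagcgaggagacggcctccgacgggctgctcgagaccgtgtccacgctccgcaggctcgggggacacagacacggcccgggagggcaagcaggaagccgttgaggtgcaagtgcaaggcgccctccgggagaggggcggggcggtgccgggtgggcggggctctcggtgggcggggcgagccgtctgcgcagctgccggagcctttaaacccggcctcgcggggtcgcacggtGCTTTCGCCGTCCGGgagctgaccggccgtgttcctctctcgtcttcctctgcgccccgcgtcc
Slc5a3 read 414 and 474 in neurons and 5446 and 5078 in astrocytes on its brightest probe set. This is an 11.6-fold difference (log2 difference -3.53 ± 0.12, adjusted p = 1.82e-07). A second probe set read 47 and 68 against 700 and 612 (log2 difference -3.27 ± 0.19, adjusted p = 2.04e-06), and the third, dim one read 15 and 23 against 39 and 33 and did not pass (adjusted p = 0.0657). Both genes were thus higher in astrocytes, and the difference between their factors was not tested. Which transcripts of this locus each probe set reads was not tested, and the brighter Mrps6 probe set is annotated as matching several transcripts.

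**Figure D3:**
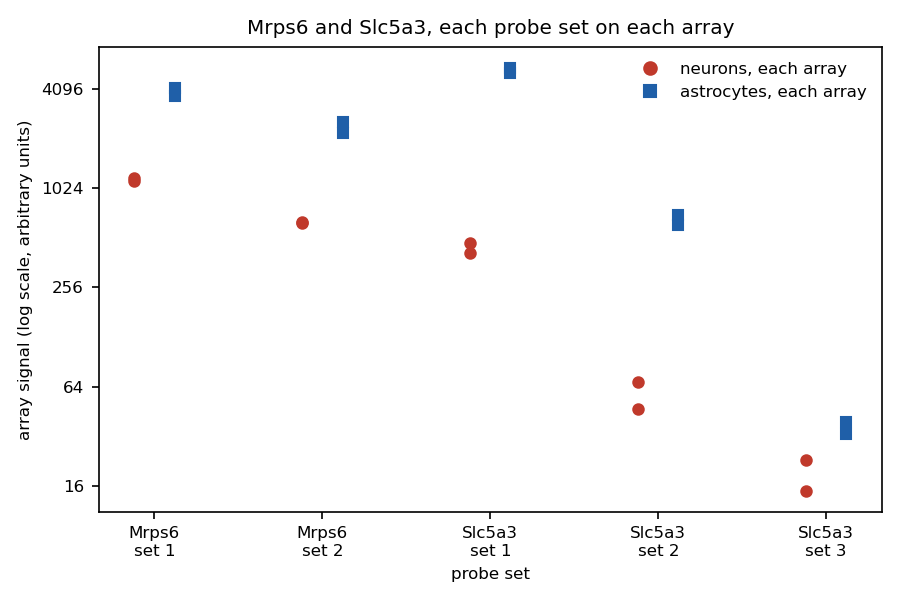
Signal (y axis, log scale, arbitrary units) of both Mrps6 probe sets and the 3 Slc5a3 probe sets on the 2 neuron arrays (circles) and the 2 astrocyte arrays (squares). The astrocyte arrays lie above the neuron arrays on each of the 5 probe sets, by 3.36-fold and 3.72-fold for Mrps6.

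The small subunit held 3 other genes higher in astrocytes and 5 higher in neurons. Mrps14, the counterpart of a bacterial protein of the head of the small subunit, read 1039 and 882 in neurons and 1602 and 1761 in astrocytes (log2 difference -0.80 ± 0.13 (SE, n = 2 per group), adjusted p = 0.000712). In the opposite direction, Mrps26, a protein found only in mitochondrial ribosomes, read 568 and 524 in neurons and 235 and 262 in astrocytes, a 2.14-fold difference (log2 difference 1.10 ± 0.14 (SE, n = 2 per group), adjusted p = 0.000193). For these 2 genes the arrays read here were far apart between groups, and each call held when any 1 array was left out. A second, dimmer Mrps14 probe set read 274 and 198 against 318 and 292 and did not pass (log2 difference -0.37, adjusted p = 0.111).

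Mrps27, a pentatricopeptide repeat protein of the small subunit, read 89 and 83 in neurons and 40 and 62 in astrocytes (log2 difference 0.65 ± 0.23 (SE, n = 2 per group), adjusted p = 0.0392). Mrps5, whose bacterial counterpart lines the path by which messenger RNA enters, read 201 and 250 against 124 and 163 (log2 difference 0.61 ± 0.19 (SE, n = 2 per group), adjusted p = 0.0235). In both genes the neuron arrays were higher without overlap, but 1 array of a group lay well away from the other. The Mrps27 call was lost without neurons replicate 1 (adjusted p = 0.181), neurons replicate 2 (0.141) or astrocytes replicate 1 (0.200), and with other scalings (0.0663 with quantile normalization and 0.0750 with median centring). Mrps5 missed it without any 1 of the arrays (0.0556 to 0.191). Its other 3 tested probe sets did not pass, and the mean of all 4 gave 0.12 (adjusted p = 0.534). Of the other called genes of the small subunit, Mrps24 (0.44) and Mrps11 (0.42) were higher in neurons, and Mrps9 (-0.50) and Mrps28 (-0.47) were higher in astrocytes, as log2 differences. None of these 4 calls held in all 4 leave-one-out fits, where the difference shrank to 0.34 for Mrps11, -0.31 for Mrps9 and -0.31 for Mrps28. Each of these fits took the brightest probe set anew, and for Mrps24 they did not all read the same one. Its lowest difference there, 0.06, comes from another of its probe sets and does not measure the spread of the arrays read above.

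Mrps12, a small subunit protein next to the site where codons are read, had the smallest difference of all. It read 761 and 586 in neurons and 618 and 709 in astrocytes, so the groups overlapped fully (log2 difference 0.01, 95% interval -0.35 to 0.37, adjusted p = 0.952).

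In the large subunit, Mrpl13 and Mrpl24 were the genes furthest toward astrocytes. Mrpl13, the counterpart of a bacterial protein bound early in assembly of the large subunit, read 711 and 605 in neurons and 1440 and 1423 in astrocytes, a 2.16-fold difference (log2 difference -1.11 ± 0.13 (SE, n = 2 per group), adjusted p = 9.63e-05). Its second probe set read 323 and 292 against 650 and 526 and was called the same way (log2 difference -0.90, adjusted p = 0.00100), whereas the third read 128 and 141 against 227 and 151 and did not pass (adjusted p = 0.112). Mrpl24, whose bacterial counterpart lies near the exit of the peptide tunnel, read 534 and 545 against 1093 and 1131, a 2.04-fold difference (log2 difference -1.03 ± 0.12 (SE, n = 2 per group), adjusted p = 9.92e-05). The replicates of each group were close beside the gap between groups, and both calls held in every leave-one-out fit.

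Mrpl2 lies close to the centre where peptide bonds form. It read 285 and 195 in neurons and 368 and 447 in astrocytes (log2 difference -0.75 ± 0.20 (SE, n = 2 per group), adjusted p = 0.0110). Its call was lost without neurons replicate 2 (0.103), astrocytes replicate 1 (0.0747) or astrocytes replicate 2 (0.162). Mrpl33, a small protein with a bacterial counterpart, read 211 and 250 against 391 and 303 (log2 difference -0.56 ± 0.17 (SE, n = 2 per group), adjusted p = 0.0227). It missed the threshold without neurons replicate 1 (0.170), neurons replicate 2 (0.0739) or astrocytes replicate 1 (0.195). In both genes the spread within a group took up much of the difference. Mrpl51, found only in mitochondria, read 933 and 1045 against 1521 and 1333 (log2 difference -0.52 ± 0.12 (SE, n = 2 per group), adjusted p = 0.00677). Its other 2 probe sets did not pass, the mean of all 3 gave -0.08 (adjusted p = 0.618), and the call was lost without neurons replicate 1 (0.0832) or astrocytes replicate 1 (0.0788).

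Mrpl45 helps to hold the large subunit at the inner membrane. It read 284 and 301 in neurons and 372 and 402 in astrocytes (log2 difference -0.39 ± 0.14 (SE, n = 2 per group), adjusted p = 0.0386), and was lost without any 1 of the arrays (0.0802 to 0.178). Mrpl39 and Mrpl9 were, with Mrps6, the 3 genes with several tested probe sets that were all called the same way. Mrpl39 read 1251 and 1316 against 1767 and 1841 (log2 difference -0.49 ± 0.11 (SE, n = 2 per group), adjusted p = 0.00465), with a second probe set at 386 and 417 against 529 and 511. It missed the threshold only without neurons replicate 1 (0.0515). Mrpl9 read 451 and 500 against 643 and 728 (log2 difference -0.52 ± 0.13 (SE, n = 2 per group), adjusted p = 0.0100), and its 3 probe sets gave log2 differences from -0.58 to -0.47. Without neurons replicate 1 or astrocytes replicate 2 its call was lost, with an adjusted p of at most 0.101. Mrpl22 was higher in astrocytes as well (log2 difference -0.45), and its highest adjusted p in the leave-one-out fits was 0.151.

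Among large subunit genes higher in neurons, Mrpl12 and Mrpl20 had the largest differences. Mrpl12 forms the flexible stalk that calls translation factors to the ribosome. It read 920 and 826 in neurons and 503 and 466 in astrocytes, a 1.78-fold difference (log2 difference 0.83 ± 0.13 (SE, n = 2 per group), adjusted p = 0.000590). Mrpl10 anchors that stalk, and it read 382 and 282 in neurons and 374 and 436 in astrocytes, with overlapping groups (log2 difference -0.29, 95% interval -0.69 to 0.11, adjusted p = 0.193). The 2 stalk genes therefore gave estimates of opposite sign, and the difference between them was not tested. Mrpl20, whose bacterial counterpart binds early in assembly, read 909 and 914 against 516 and 551 (log2 difference 0.76 ± 0.12 (SE, n = 2 per group), adjusted p = 0.000698). The calls for Mrpl12 and Mrpl20 held when any 1 array was left out.

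Mrpl43, a protein found only in mitochondrial ribosomes, read 811 and 757 in neurons and 449 and 564 in astrocytes (log2 difference 0.63 ± 0.14 (SE, n = 2 per group), adjusted p = 0.00580). Mrpl19, whose bacterial counterpart lies at the interface of the subunits, read 327 and 347 against 199 and 248 (log2 difference 0.57 ± 0.16 (SE, n = 2 per group), adjusted p = 0.0137). Both were higher on each neuron array than on each astrocyte array, yet both missed the threshold when 1 of 3 arrays was left out. For Mrpl43 these were neurons replicate 1 (0.0845), neurons replicate 2 (0.0601) and astrocytes replicate 1 (0.0651), and for Mrpl19 the same 3 (0.0760, 0.103 and 0.114). The mean of the 3 Mrpl19 probe sets gave 0.36 (adjusted p = 0.0537). Mrpl11 (log2 difference 0.50) and Mrpl32 (0.42) completed the genes higher in neurons with Mrpl47 and Mrps18a. The highest adjusted p in the leave-one-out fits was 0.0628 for Mrpl11 and 0.0833 for Mrpl32.

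**Figure D4:**
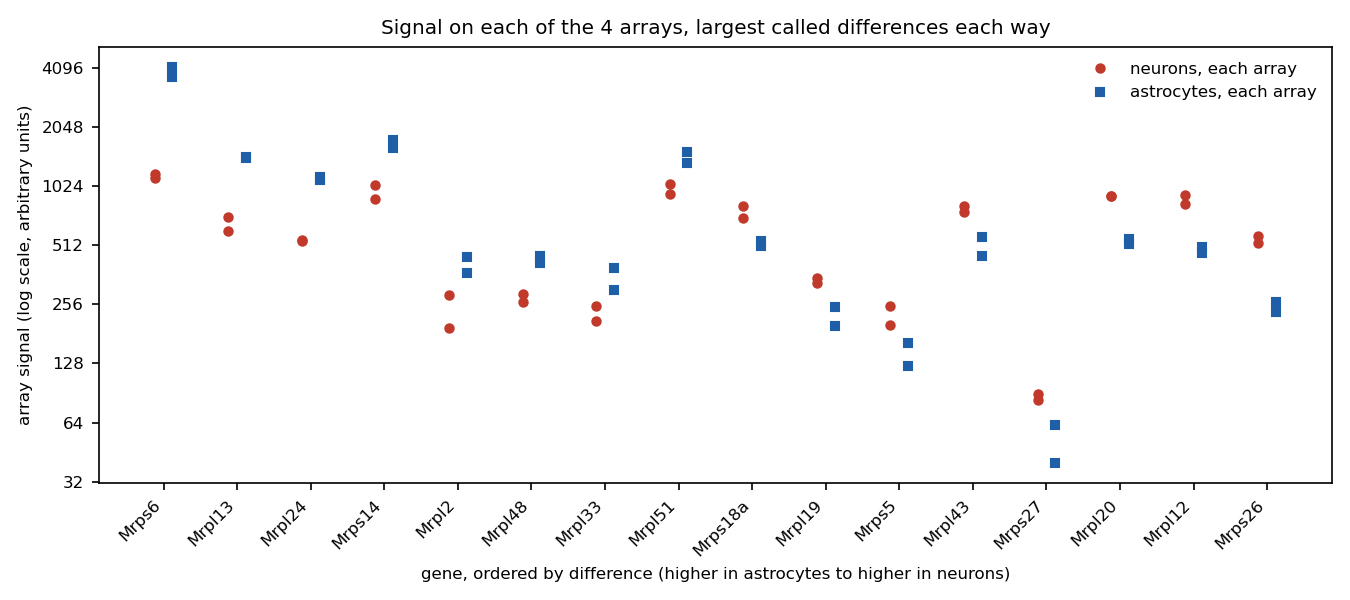
Signal (y axis, log scale, arbitrary units) of the 8 genes with the largest called difference in each direction on the 2 neuron arrays (circles) and the 2 astrocyte arrays (squares). The groups do not overlap in any of the 16 genes, and the gap is widest for Mrps6, at 1123 and 1177 against 3672 and 4132.

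Among the Mrps18 paralogues, only Mrps18a was called. Mammals have 3 proteins related to the bacterial protein S18: Mrps18c occupies its place in the small subunit, Mrps18b sits elsewhere in the small subunit and Mrps18a sits in the large subunit. Mrps18a read 807 and 701 in neurons and 507 and 534 in astrocytes, higher in neurons without overlap (log2 difference 0.52 ± 0.13 (SE, n = 2 per group), adjusted p = 0.00847). It missed the threshold without neurons replicate 1 (0.0688), astrocytes replicate 1 (0.0818) or astrocytes replicate 2 (0.0607). Mrps18b read 273 and 252 against 192 and 239 and did not pass (log2 difference 0.28, 95% interval -0.10 to 0.65, adjusted p = 0.180). With Mrps18c, given above, 1 of the 3 was called. Whether the paralogues differ from each other was not tested.

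For the 49 genes that did not pass, log2 differences ran from -0.31 to 0.31. The 95% interval lay within 1 log2 unit of 0 in all 49, and within 0.5 in 26. Mrpl14, a protein of the interface between the subunits, read 258 and 191 in neurons and 190 and 254 in astrocytes (log2 difference 0.01, 95% interval -0.45 to 0.48, adjusted p = 0.959). Mrpl54 read 221 and 209 against 211 and 212 (log2 difference 0.02, 95% interval -0.32 to 0.36, adjusted p = 0.912). Mrpl34 read 440 and 448 against 364 and 518 (log2 difference 0.03, 95% interval -0.37 to 0.43, adjusted p = 0.896). The groups overlapped in each of these 3 genes, and in Mrpl34 the astrocyte arrays lay on either side of both neuron arrays. Nearest to the threshold was Mrpl57, at 830 and 864 against 699 and 665 (log2 difference 0.31, adjusted p = 0.0522). The dehydrogenase protein Mrps36 read 440 and 475 against 361 and 459 and did not pass (adjusted p = 0.398).

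Probe sets of 1 gene did not always agree. Of 33 genes with more than 1 tested probe set, 3 had all of them called the same way, 13 had some called in 1 direction, 3 were called in both directions and 14 had none called. The sign of the difference varied between probe sets in 16 of them. Over probe sets, 21 of 131 were higher in neurons and 23 were higher in astrocytes, against 29.4% and 27.7% of all 25019 tested. With median centring these were 11 and 28. Of the 131, 4 passed the filter on low values only through 1 group, and 3 of those were called toward that group (1 each for Mrpl17, Mrpl35 and Mrpl47), so these calls support no direction. The counts above include them, and without them Mrpl48 alone would be called both ways.

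The genes called both ways were Mrpl35, Mrpl47 and Mrpl48, all of the large subunit. The brightest Mrpl35 probe set read 491 and 532 in neurons and 515 and 589 in astrocytes and did not pass (adjusted p = 0.531). A second lay at or under the background in neurons, at 19 and 23, and read 66 and 48 in astrocytes, at least 2.59-fold higher there. It passed the filter only through the astrocyte arrays. The third read 230 and 212 against 64 and 51 (log2 difference 1.74, adjusted p = 6.58e-05). The brightest and the third reading of Mrpl35 thus give no single direction. Mrpl47 read 425 and 411 against 290 and 297 (log2 difference 0.49 ± 0.13 (SE, n = 2 per group), adjusted p = 0.0122), while a dim probe set read 22 and 22 against 55 and 67. That probe set passed the filter only through the astrocyte arrays, and its neuron values lie beside a background of 21 and 23. The mean over both probe sets was -0.30 and did not pass (adjusted p = 0.108), and the call was also lost without neurons replicate 1 (0.0594), astrocytes replicate 1 (0.0776) or astrocytes replicate 2 (0.0680). Mrpl48, a protein of the central protuberance, read 289 and 262 against 415 and 449 (log2 difference -0.63 ± 0.14 (SE, n = 2 per group), adjusted p = 0.00471), with a second probe set at 248 and 244 against 365 and 345 (log2 difference -0.51, adjusted p = 0.0128). The third probe set, a dim one, ran the other way, at 110 and 61 against 46 and 44 (log2 difference 0.72, adjusted p = 0.0470). The mean of the 3 gave -0.14 (adjusted p = 0.444), and the first call was lost without astrocytes replicate 2 (0.0644). Which transcript each of these probe sets reads was not tested.

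**Figure D5:**
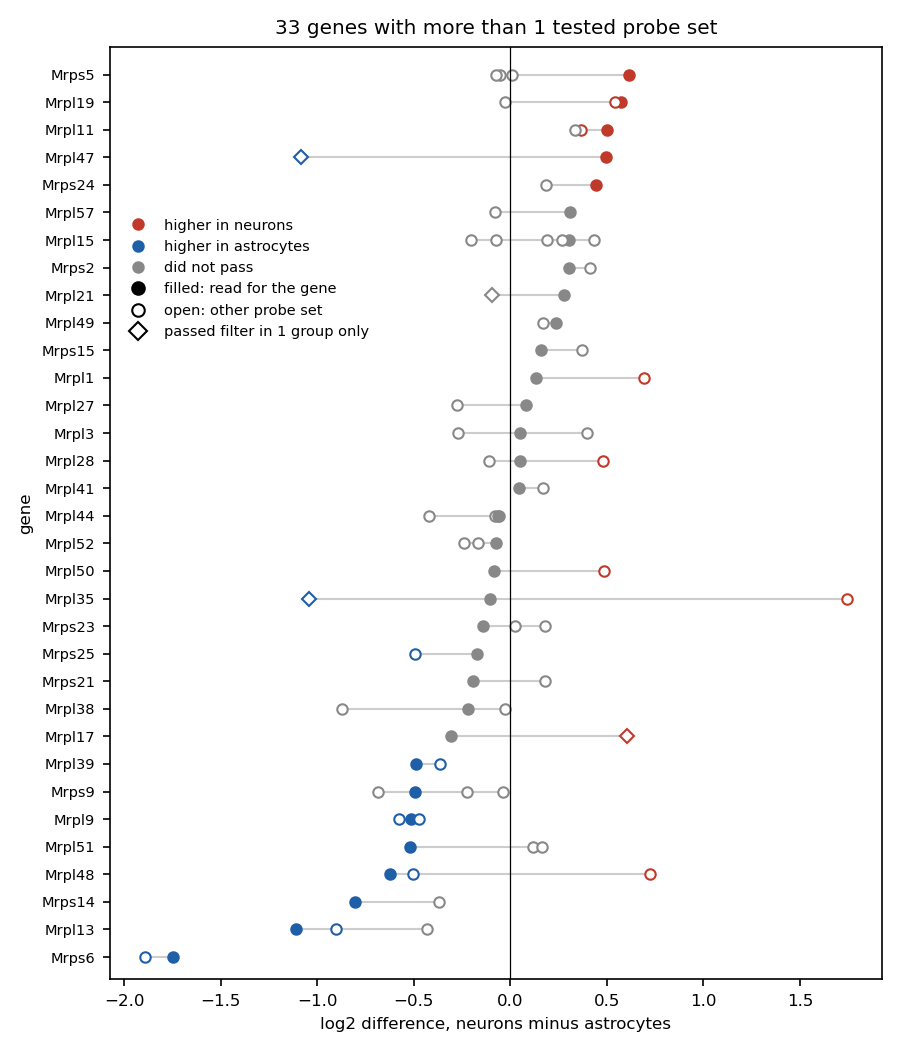
Log2 difference (x axis, neurons minus astrocytes) of every tested probe set of the 33 genes with more than 1, with 1 gene per line ordered by the probe set read for the gene (filled). Diamonds mark the 4 probe sets that passed the filter on low values only through 1 group. Red probe sets are higher in neurons, blue higher in astrocytes and grey did not pass; the Mrpl48 probe sets span -0.63 to 0.72, while both Mrps6 probe sets lie between -1.89 and -1.75.

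The genes around the mitochondrial ribosome were read from lists of translation factors, tRNA synthetases, assembly factors, mitochondrial DNA maintenance, nuclear regulators and general mitochondrial content. Of 4 further ribosomal proteins that carry other symbols, Dap3, a GTP-binding protein of the small subunit, was higher in neurons (1312 and 1118 against 786 and 820, log2 difference 0.59, adjusted p = 0.00394), and 3 did not pass. The Dap3 call was lost without astrocytes replicate 1 (0.0576). Of 13 mitochondrial translation factors, 12 did not pass. The exception was Mtrf1l, a release factor, at 97 and 118 in neurons and 180 and 142 in astrocytes (log2 difference -0.53, adjusted p = 0.0434), and it missed the threshold when any 1 array was left out (0.0769 to 0.254). Mtif2, an initiation factor, read 417 and 414 against 434 and 390 (adjusted p = 0.939). The share called, 7.69%, was the lowest of these lists, beside 62.2% of all genes.

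Of 16 mitochondrial tRNA synthetases, which charge tRNAs with amino acids, 1 was higher in neurons and 4 were higher in astrocytes. The share called was 31.2%, against 62.2% of all genes. Vars2, for valine, read 57 and 51 against 19 and 18 and passed the filter only through the neuron arrays, and Iars2, for isoleucine, read 137 and 143 against 285 and 294 (log2 difference -0.99, adjusted p = 0.000564). These 2 had the largest called difference in each direction. Iars2 was called in every leave-one-out fit. Vars2 was not tested in the 2 fits without a neuron array, where the filter removed it. The other calls of the list, Fars2, Hars2 and Wars2, were lost in at least 2 of the 4 fits. Of 25 assembly and rRNA modification factors, 3 were higher in neurons and 6 in astrocytes. Noa1, a GTPase of small subunit assembly, read 230 and 201 against 83 and 98 (log2 difference 1.15, adjusted p = 0.000598). Nsun4, an rRNA methyltransferase, read 89 and 91 against 227 and 200 (log2 difference -1.14, adjusted p = 0.000477). Both calls held with any 1 array left out, when the list held 1 or 2 genes higher in neurons and 1 to 3 higher in astrocytes. The share called in this list was 36.0%, close to the 35.5% of the ribosomal proteins.

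Mitochondrial DNA supplies the rRNA of the particle. Of 17 genes for its maintenance and transcription, 29.4% were called, against 62.2% of all genes. Lrpprc, which stabilises mitochondrial messenger RNA, was higher in neurons (336 and 390 against 248 and 204, log2 difference 0.66, adjusted p = 0.00764). The 4 genes higher in astrocytes were Ssbp1, Tfb2m, Slirp and Tefm, of which Ssbp1, the single-stranded DNA-binding protein, had the largest difference (922 and 835 against 1642 and 1909, log2 difference -1.003, adjusted p = 0.000181). The transcription factor Tfam (log2 difference -0.32, adjusted p = 0.0861) and the polymerase Polrmt (-0.04, adjusted p = 0.840) did not pass. Lrpprc and Slirp, which bind each other, were called in opposite directions. Lrpprc missed the threshold without neurons replicate 2 (0.0841) or astrocytes replicate 2 (0.0925), and Tefm when any 1 array was left out (0.0593 to 0.155).

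Of 13 nuclear regulators of mitochondrial genes, 4 were higher in each group and 5 did not pass, so that 61.5% were called, near the 62.2% of all genes. With 1 array left out, the call for Esrrb, higher in neurons, was lost in all 4 fits and that for Esrrg in 3 of them. The coactivator gene Ppargc1b read 171 and 158 in neurons and lay at or under the background in astrocytes, at 6 and 15, which makes it at least 10.3-fold higher in neurons. It passed the filter only through the neuron arrays. In the 2 fits without a neuron array the filter removed Ppargc1b, so it was not tested there. Its relative Ppargc1a read 349 and 279 against 354 and 294 and did not pass (adjusted p = 0.833). Gabpa, the DNA-binding part of an ETS-family factor, read 436 and 381 against 984 and 792 (log2 difference -1.09, adjusted p = 0.000309). The largest difference toward astrocytes was that of Sp1 (250 and 296 against 671 and 655, log2 difference -1.25, adjusted p = 9.41e-05). Yy1 was higher in astrocytes by a small factor (761 and 865 against 1023 and 1061, log2 difference -0.36, adjusted p = 0.0343) that was lost when any 1 array was left out (0.0539 to 0.158), and Nrf1 did not pass (54 and 76 against 96 and 102, log2 difference -0.54, adjusted p = 0.0580). The calls for Gabpa, Gabpb2 and Sp1, higher in astrocytes, and for Myc, higher in neurons, held in all 4 leave-one-out fits. The log2 difference of Myc was 1.38, and its lowest value in these fits was 1.27.

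Of 19 genes taken as signs of mitochondrial content, 6 were higher in neurons, 1 was higher in astrocytes and 12 did not pass. The share higher in neurons, 31.6%, was near the 31.0% of all genes. The share higher in astrocytes, 5.26%, lay under the 31.1% of all genes. Tomm70a, a receptor of the outer membrane import machinery, read 2479 and 2494 against 524 and 495 (log2 difference 2.26, adjusted p = 9.14e-07). Citrate synthase, Cs, read 3344 and 3529 against 2382 and 2188 (log2 difference 0.59, adjusted p = 0.00147). The import chaperone Hspa9 was the gene higher in astrocytes (755 and 798 against 1188 and 1453, log2 difference -0.75, adjusted p = 0.00140). Vdac1, a channel of the outer membrane, read 4150 and 4268 against 3597 and 3941 and did not pass (adjusted p = 0.211). The calls for Tomm70a, Cs and Hspa9 held with any 1 array left out, when 3 to 5 genes of the list were higher in neurons and 1 in astrocytes. The median of this list was 0.14, beside 0.03 for the ribosomal proteins.

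Promoters of the members held motifs of 3 regulators of mitochondrial genes more often than promoters at large. RefSeq's table for GRCm38.p6 gave 73 promoter entries for 67 member genes, each from 250 bases before to 50 bases after a start. Both strands were searched for CATGCGCA (NRF1), CCGGAAGT (ETS family), AAGATGGCG (YY1), for the E-box and for the TATA box, and no match in a member overlapped one of another motif. Shares are of genes, a gene counting once if any of its entries holds the motif. The NRF1 letters were in 8.96% of the 67 member genes and 2.42% of all 27025 genes with an entry. The ETS letters were in 17.9% and 4.31%, and the YY1 letters in 11.9% and 1.64%. The E-box, CACGTG, was in 7.46% of the members, near the 8.09% of all genes. The TATA box (searched as TATAAA) was in a smaller share of the members, 7.46%, than of all, 15.7%. Any of the NRF1, ETS and YY1 motifs was in 37.3% of member genes and 7.93% of all, with 37.5% for cytosolic ribosomal proteins and 28.8% for respiratory chain and ATP synthase subunits. These shares are descriptions of sequence.

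The YY1 letters were in 4 of the 12 member genes higher in neurons with an entry, 0 of the 12 higher in astrocytes and 4 of the 43 that did not pass, against 1.64% of all genes. The 4 genes in the first count are Mrps11, Mrps18a, Mrps24 and Mrps27, and each lost its call in at least 3 of the 4 leave-one-out fits. For Mrps24 these fits did not all read the same probe set. None of Mrps26, Mrpl12 and Mrpl20, the genes called higher in neurons in all 4 fits, holds these letters. The 8 matches are shown, each in 60 bases of GRCm38.p6 on the strand of the gene with the motif in capitals, because this motif had the rarest letters of the 5 among all genes. The split over the calls was seen after the calls, rests on calls that leaving out 1 array removes, and was not tested. Genes higher in neurons come first, then those that did not pass.
Mrps11, chr7:78782997-78783056, + strand: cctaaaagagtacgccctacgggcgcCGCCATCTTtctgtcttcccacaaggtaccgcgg
Mrps18a, chr17:46110989-46111048, + strand: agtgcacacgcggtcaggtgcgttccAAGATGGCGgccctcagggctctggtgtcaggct
Mrps24, chr11:5707652-5707711, - strand: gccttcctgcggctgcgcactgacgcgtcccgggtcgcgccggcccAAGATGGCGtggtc
Mrps27, chr13:99344774-99344833, + strand: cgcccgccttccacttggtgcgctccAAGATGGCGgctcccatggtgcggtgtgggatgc
Mrpl35, chr6:71823735-71823794, - strand: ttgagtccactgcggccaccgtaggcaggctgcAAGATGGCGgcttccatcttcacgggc
Mrpl36, chr13:73330952-73331011, + strand: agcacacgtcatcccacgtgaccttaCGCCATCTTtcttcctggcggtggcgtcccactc
Mrpl37, chr4:107066817-107066876, - strand: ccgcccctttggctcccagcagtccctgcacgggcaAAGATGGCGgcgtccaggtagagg
Mrpl42, chr10:95501900-95501959, - strand: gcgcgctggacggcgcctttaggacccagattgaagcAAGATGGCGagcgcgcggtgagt
In 6 of the 8 entries the motif begins between 11 and 36 bases after the start, as AAGATGGCG on the strand of the gene. In Mrps11 and Mrpl36 it begins 108 and 31 bases before the start, as CGCCATCTT. The letters of the motif include ATG, and whether a match is the first codon of the gene was not tested.

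The ETS letters were in 3 of 12 member genes higher in neurons, 3 of 12 higher in astrocytes and 6 of 43 that did not pass. Mrps26, the gene with the largest difference toward neurons, holds them 15 bases before its start, shown with the motif in capitals as the reverse complement.
Mrps26, chr2:130563716-130563775, + strand: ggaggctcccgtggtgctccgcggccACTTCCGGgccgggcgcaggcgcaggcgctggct
None of the 5 motifs was found in the entries of Mrps6, Mrpl24 and Mrpl12.

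Genes that start near a member were read as well. Within 1000 bases of the start, 27 of the 67 genes had the start of another gene. How often this holds over all genes was not counted, so it is not given as a trait of the members. In 20 pairs both genes were tested, 19 of them on opposite strands, and Mrps6 with Slc5a3 was the pair on 1 strand. Both genes were called in 6 pairs, in the same direction in 4: Mrps6 with Slc5a3, Mrpl2 with Klc4, Mrpl47 with Ndufb5 and Mrps27 with Ptcd2. The share of such pairs over all genes was not counted, and 62.2% of all genes were called. Ndufb5 encodes a subunit of respiratory complex I (log2 difference 0.46 beside 0.49 for Mrpl47), and Ptcd2 a pentatricopeptide repeat protein (1.16 beside 0.65 for Mrps27). The directions were opposite for Mrpl48 with Rab6a (-0.63 and 0.67) and Mrpl51 with Ncapd2, a condensin subunit (-0.52 and 1.71). Of these neighbours, Slc5a3, Ptcd2 and Ncapd2 were called in all 4 leave-one-out fits. Klc4 was lost in each of them, and Ndufb5 without neurons replicate 1, neurons replicate 2 or astrocytes replicate 1. Rab6a was lost without neurons replicate 1, where another of its probe sets was read. The sign was shared in 11 of 20 pairs. The Pearson correlation over these pairs was 0.527 as a description, and -0.0606 without Mrps6, so it rests on that pair. All pairs come from the same 4 arrays.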

How the data were processed

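RNA from 2 neuron and 2 astrocyte cultures was hybridised to 4 one-colour arrays. Per the labels' protocols, 50 ng of RNA was amplified in 2 cDNA cycles. The authors deposited 1 linear intensity per probe set, from MAS5 (per the submitters' processing notes, version not given in the sources), and its scaling was kept. The number of arrays limits the precision.

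Without the 64 controls, values were taken as log2(value + 12.5), so folds understate the change of dim genes. Probe sets at or above the array median on at least 2 of 4 arrays were kept (25019). The test was limma 3.58.1 under R 4.3.3 (lmFit, then eBayes with trend, two-sided), adjusted by Benjamini-Hochberg across what was kept, at 0.05. Every adjusted p is from this fit (residual degrees of freedom 2, prior 6.27) or its alternatives. Each gene took its brightest kept probe set with a single symbol. This choice was made anew in each alternative fit, so a gene with several kept probe sets could be read by another one there. All 156 member symbols were unchanged after a lookup of their Entrez identifiers.

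Background was the highest of 27 Bacillus subtilis controls, 21 and 23 on the neuron and 17 and 15 on the astrocyte arrays. A group with both arrays no higher than this enters folds as the mean background, marked "at least". The fit was also run on simulated data whose variances were drawn from its own prior, which does not measure its errors on these arrays.

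The members, the gene lists and the tests were chosen with earlier results of these data known. Array-by-array values are given for the 8 largest called differences in each direction, the 4 highest means, the 4 smallest differences, genes called both ways and 7 genes chosen for their role; in each list, for the largest call in each direction and the highest mean. Other genes were chosen after their values were seen. Promoters are from RefSeq's table for GRCm38.p6; the array files name no build. Alternatives were the offset, the filter, the scaling, the trend, the probe set rule, a replicate block and leaving out each array. Replicate numbers were not shown to pair the samples.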

Additional observations from a re-analysis of the deposited data

How the results depend on the processing

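Of the 27 member calls, 27 held with the offset divided or multiplied by 4, 26 with a filter at the 75th percentile, with quantile normalization or without probe sets that match several transcripts, 23 with median centring, 20 without the mean-variance trend and 18 without the filter on low values. Without the filter, more probe sets were tested, and the calls for Mrpl2, Mrpl33, Mrpl45, Mrps5 and Mrps27 were among those lost. Of the 18 genes still called, 8 were higher in astrocytes, so calls higher in neurons were there the more numerous. Over probe sets, 13 were higher in neurons and 14 higher in astrocytes. With median centring, 11 probe sets were higher in neurons and the median over all Mrp probe sets was -0.079 instead of 0.028. With each array left out in turn, 3 to 6 genes were higher in neurons and 6 to 9 in astrocytes, over probe sets 4 to 9 and 10 to 15, and the median ranged from -0.023 to 0.054; the cause was not tested, and these fits have fewer samples. With probe sets averaged per gene, 21 calls held. The Mrpl47 estimate changed sign to -0.30 and did not pass. That mean includes its dim probe set, which passed the filter only through the astrocyte arrays, so it supports no direction. The same-number samples did not deviate together (correlation -0.0901), so the numbers were not shown to pair. With a replicate block, which leaves 1 residual degree of freedom, 12 genes were higher in neurons and 13 in astrocytes, 25 of the 27 calls held and Mrpl45 was lost (adjusted p = 0.0701). Signals near the background limit the dim probe sets of Mrpl35 and Mrpl47.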
